A study of Arabidopsis thaliana with 12 samples.

Results

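Plants take up ammonium and build it into amino acids. With earlier results of these data known, 10 genes of this route were taken by gene identifier from the 33323 genes of the deposited FPKM table. They encode the ammonium transporters AMT1;1 (AT4G13510) and AMT2 (AT2G38290), the nitrate reductases NIA1 (AT1G77760) and NIA2 (AT1G37130), the nitrite reductase NIR1 (AT2G15620), the plastid glutamine synthetase GS2 (AT5G35630), the ferredoxin-dependent glutamate synthase GLU1 (AT5G04140), the asparagine synthetase ASN1 (AT3G47340) and the glutamate dehydrogenases GDH1 (AT5G18170) and GDH2 (AT5G07440). RNA of whole Arabidopsis thaliana rosettes, which the labels call leaf, was sequenced at 35 days under 8 h of light and 16 h of darkness, and each of the 4 genotypes had 3 libraries, each from an individual plant. The 35S:KLU1 and 35S:KLU2 plants are independent lines, in the Col-0 ecotype, of a transgene in which the constitutive 35S promoter drives KLU fused to GFP. The klu plants carry a T-DNA insertion in KLU in the same ecotype, and Col-0 is the wild type (WT). The question asked here is whether these genes differ between plants with raised, absent and normal KLU, a cytochrome P450 gene (CYP78A5) that promotes organ growth. Since the 35S promoter acts in most cells, the 35S:KLU plants make KLU transcript outside its own domain. The hour of harvest is not given in the sources used here.

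Nitrate is reduced to nitrite by nitrate reductase in the cytosol and then to ammonium by nitrite reductase in the plastid. Glutamine synthetase joins ammonium to glutamate, and glutamate synthase passes the amide group of glutamine to 2-oxoglutarate, which yields glutamate for all other amino acids. In leaves the plastid pair GS2 and GLU1 also recovers the ammonium that photorespiration sets free. Asparagine synthetase makes a transport form of nitrogen, and the gene ASN1 is known for its rise in darkness. Glutamate dehydrogenase mainly breaks glutamate down when carbon is short.

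FPKM sums were 1110149 to 1194277 per library, and the value of 1 fragment, read from the steps between low values, ranged from 0.88 to 1.56 times that of Col-0 replicate 1. All 10 members lay far above that step, at 11.74 FPKM or more in every library, and all passed the filter of 0.5 FPKM in at least 3 libraries that left 19660 genes for testing. KLU itself was at 1729 to 2890 FPKM in 35S:KLU plants. It was at 0.13 to 0.22 FPKM in klu, against 5.42 to 6.26 FPKM in WT. A klu library stood apart. In klu replicate 1 the sum of 4 shoot meristem markers was 0.06 FPKM. Both other klu plants had 13.0 and 14.4 FPKM, and the rest 5.68 to 10.4 FPKM. Of these markers CLV3 was at 0 throughout and WUS at 0.06 FPKM or less, so the contrast rests on KNAT1 and STM. The tissue had the profile of a shoot, with 8 leaf photosynthesis markers adding up to 59729 FPKM or more and 6 root markers to 2.47 FPKM or less in every library, and with EXPA7, a root hair gene, at 0 throughout. A differentially expressed gene (DEG) has an adjusted p under 0.05 in limma, adjusted over all 19660 genes, and fold changes are on the scale of log2(FPKM + 1).

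In Col-0 the members spanned from 14.7 ± 2.09 FPKM for ASN1 to 872.1 ± 10.7 FPKM for GS2 (SD, n = 3), and GS2 stood at percentile 99.3 of the tested genes. Since FPKM is per transcript length, the members can be ranked against each other. GLU1 came second at 231.5 ± 8.65 FPKM. NIA2, NIR1 and AMT1;1 followed at 129.6 ± 5.32, 122.2 ± 14.8 and 93.1 ± 8.88 FPKM. GDH1 had 58.2 ± 0.713, GDH2 48.4 ± 5.02, AMT2 24.5 ± 1.11 and NIA1 23.1 ± 2.52 FPKM. Neighbours in this order did not overlap between libraries, except for NIA2 with NIR1 and AMT2 with NIA1. In 35S:KLU plants the first of the transporters passed NIR1 without overlap, and its libraries overlapped those of NIA2.

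Relative to WT, 4 of the 10 members were DEGs in the mean of both 35S:KLU lines, and 19.6% of all tested genes were called in that comparison. Both ammonium transporters rose, whereas GS2 and GLU1, which act one after the other in the plastid, fell. By direction, 11.4% of all genes were higher and 8.18% lower, against 2 of 10 members each way. The same 4 genes were the members called in each line taken alone, where 11.7% of genes were called for 35S:KLU1 and 16% for 35S:KLU2. A call in both lines in the same direction was made for 9.13% of all genes. The median member changed by 0.04 on the log2 scale, against 0.03 for all tested genes.

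**Figure D1:**
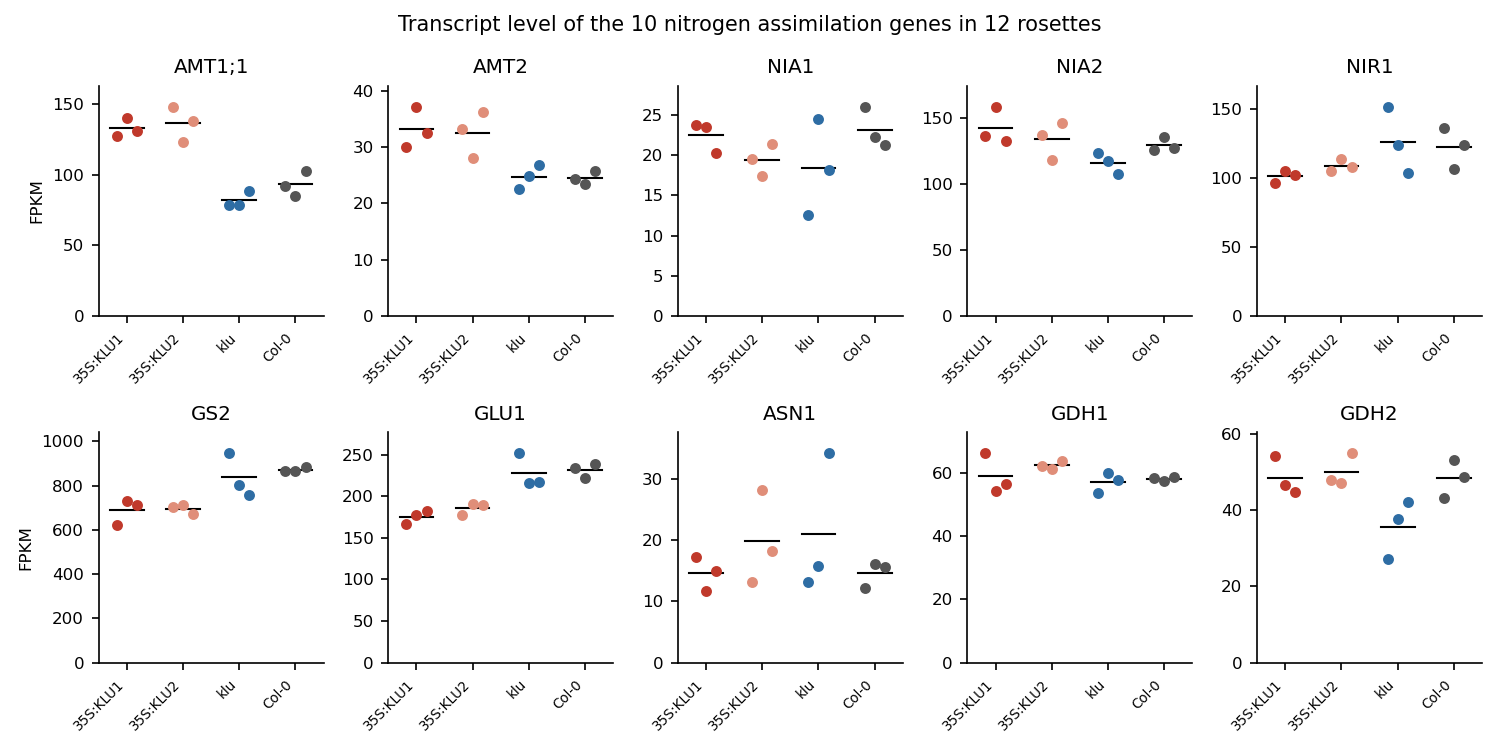
FPKM of the 10 members in each of the 12 rosettes, 1 panel per gene with its own axis from 0, points for plants and bars for the mean of a genotype. AMT1;1 and AMT2 lie higher, and GS2 and GLU1 lower, in all 6 35S:KLU plants than in any klu or Col-0 plant, and GDH2 is lowest in klu.

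The strongest change was in AMT1;1, a high-affinity transporter that brings ammonium across the plasma membrane. Its FPKM were 127.3, 140.3 and 131.2 in 35S:KLU1 and 147.8, 123.3 and 138.2 in 35S:KLU2, against 91.7, 85.1 and 102.7 in WT. Every 35S:KLU plant was thus above the highest WT plant. The means were 134.7 ± 9.09 FPKM in 35S:KLU plants (SD, n = 6) and 93.1 ± 8.88 FPKM in WT (SD, n = 3). The log2 fold change was 0.53 (SE 0.0766, adjusted p = 0.00102). In rosettes sequenced as a whole, more cells that express a gene and more RNA per cell cannot be told apart.

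AMT2, a transporter of a separate branch of the family, moved the same way. The 35S:KLU1 plants had 30.02, 37.2 and 32.5 FPKM and the 35S:KLU2 plants 33.3, 28.2 and 36.3 FPKM, against 24.3, 23.6 and 25.7 FPKM in WT. Again every 35S:KLU plant was above the highest WT plant, although 35S:KLU2 replicate 2 came close to it. The change on the log2 scale was 0.40 (SE 0.0906, adjusted p = 0.00936). The coding sequences of the pair are 62.9% identical, and their longest identical run is 8 bases, which is shorter than a read.

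The 250 bases before the gene starts of both transporters are shown because these members rose together. They are RefSeq sequence of TAIR10.1, printed 5′ to 3′ on the gene's own strand, from chr4:7857933-7858182 (plus strand) and chr2:16042522-16042771 (minus strand). Capitals mark matches on either strand to 2 of the motifs searched. The first is GATAAG, which zinc finger factors bind. The second is ACTCAT, which is known from the proline-induced promoter of a proline dehydrogenase gene.
AMT1;1: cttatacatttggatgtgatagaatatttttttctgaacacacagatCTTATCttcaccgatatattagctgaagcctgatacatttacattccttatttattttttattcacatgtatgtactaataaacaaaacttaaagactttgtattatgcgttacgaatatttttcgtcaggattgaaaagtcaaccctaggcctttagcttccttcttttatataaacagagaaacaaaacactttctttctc
AMT2: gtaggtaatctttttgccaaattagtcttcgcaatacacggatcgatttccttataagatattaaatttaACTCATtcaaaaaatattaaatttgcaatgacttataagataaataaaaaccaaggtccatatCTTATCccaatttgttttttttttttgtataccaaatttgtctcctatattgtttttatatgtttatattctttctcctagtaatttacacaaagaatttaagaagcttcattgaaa
In a window from 250 bases before to 50 bases after the start, each gene held the first motif once, as its reverse complement, 203 bases before the start in AT4G13510 and 117 bases before it in AMT2. It was also present in ASN1 and GDH1, which makes 4 of 10 members, and in 14.7% of the 27438 promoters searched. The second motif was present in AMT2, NIA1 and GS2, and likewise in 14.7% of promoters. The G-box CACGTG was present in ASN1 and GDH1 and in 7.68% of promoters, whereas the evening element of clock-controlled genes (AAAATATCT) was present in no member and in 2.82% of promoters. No matches in the members overlapped each other, and what binds there was not measured.

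The window of AT4G13510 lies partly in AT4G13505, a long noncoding RNA on the opposite strand that overlaps this transporter by 1709 bases. Its first base is also the annotated start of AT4G13500, a protein-coding gene that runs the other way. That RNA was listed at 0 to 0.39 FPKM, and at 0 in 6 of 12 libraries. Per the labels the kit keeps strand, but the strand setting of the counting is not given in the sources used here. GLU1, ASN1 and GDH1 overlap genes on the other strand by 79, 11 and 166 bases, and those genes were at 4.14 FPKM or less.

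Among all 6 ammonium transporters, the 2 members supplied most of the transcript. AMT1;1 made up 78.6% ± 1.17 of the summed FPKM in 35S:KLU plants (SD, n = 6), 73.3% ± 1.40 in klu and 75.5% ± 1.12 in WT (SD, n = 3 each). The summed level of the family was 171.4 FPKM in 35S:KLU plants, 111.6 FPKM in klu and 123.3 FPKM in WT. AMT1;4 (AT4G28700), which is known from pollen, went the other way at a far lower level, with 0.452 ± 0.131 FPKM in 35S:KLU plants and 1.05 ± 0.178 FPKM in WT (log2 fold change -0.50, adjusted p = 0.0107). AMT1;2 (AT1G64780), at 3.31 ± 0.555 FPKM in 35S:KLU plants and 4.39 ± 0.854 FPKM in WT, did not pass the test, and AMT1;3 (AT3G24300) and AMT1;5 (AT3G24290) were under the filter.

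**Figure D2:**
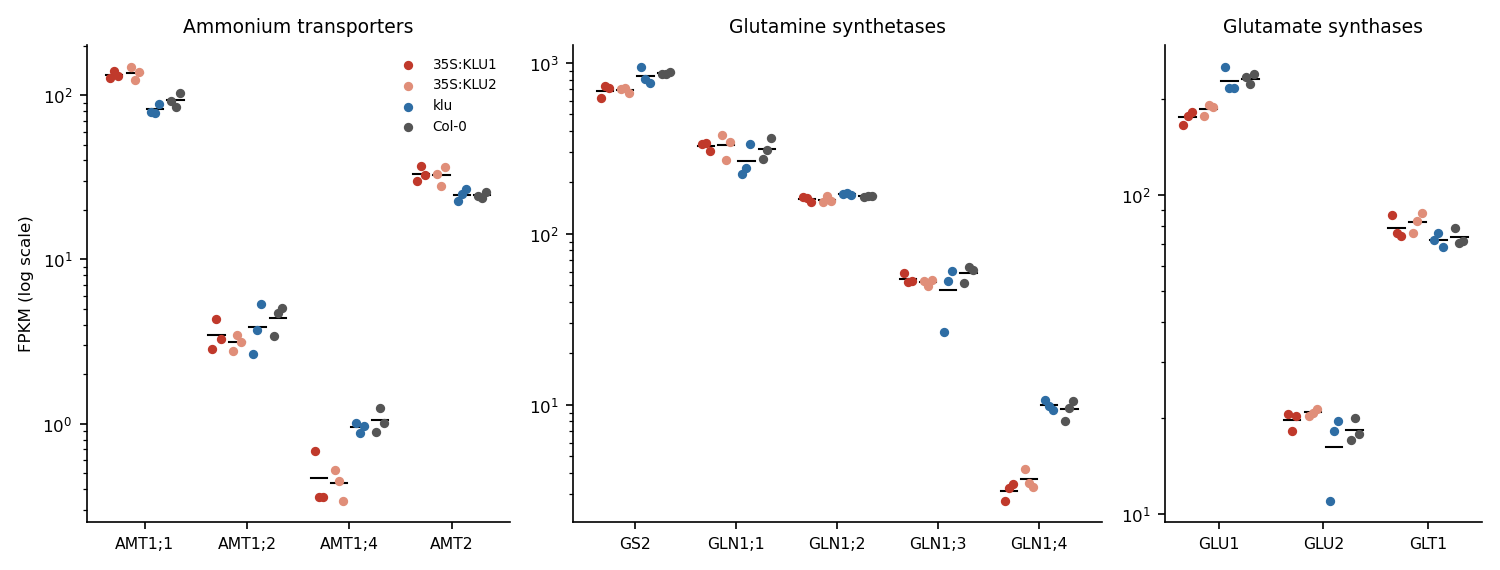
FPKM of the tested ammonium transporters, glutamine synthetases and glutamate synthases, on log axes, with points for single plants and bars for genotype means. The rightmost glutamine synthetase lies lower in all 6 35S:KLU plants than in klu and Col-0, at a level far under that of GS2.

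GS2, the plastid enzyme that fixes ammonium from photorespiration and nitrate reduction, was the most abundant member and fell. Its FPKM were 621.6, 729.1 and 714.2 in 35S:KLU1 and 704.4, 712.5 and 669.6 in 35S:KLU2, against 864.5, 867.5 and 884.4 in WT. All 6 35S:KLU plants were well below the 3 WT plants, which lay close together. The means were 691.9 ± 39.8 FPKM in 35S:KLU plants and 872.1 ± 10.7 FPKM in WT, which is a log2 difference of -0.34 (SE 0.0768, adjusted p = 0.0103).

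GLU1, the glutamate synthase that takes its electrons from ferredoxin in leaf plastids, fell by a similar factor. The 35S:KLU1 plants had 166.2, 177.4 and 182.4 FPKM and the 35S:KLU2 plants 177.5, 191.1 and 189.1 FPKM, against 233.5, 222.0 and 238.9 FPKM in WT. No 35S:KLU plant reached the lowest WT plant. On the log2 scale it changed by -0.36 (SE 0.0628, adjusted p = 0.0026). In all, the libraries of the groups did not overlap for 4 of 10 members, the 4 DEGs, and for 27.4% of all tested genes.

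The upstream sequences of this pair are given in the same form, from chr5:13830179-13830428 for GS2 and chr5:1129535-1129784 for GLU1, both on the plus strand.
GS2: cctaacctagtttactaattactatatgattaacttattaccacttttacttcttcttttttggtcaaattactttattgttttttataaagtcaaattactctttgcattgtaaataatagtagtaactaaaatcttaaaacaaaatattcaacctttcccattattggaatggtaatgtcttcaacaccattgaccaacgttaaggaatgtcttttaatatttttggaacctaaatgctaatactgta
GLU1: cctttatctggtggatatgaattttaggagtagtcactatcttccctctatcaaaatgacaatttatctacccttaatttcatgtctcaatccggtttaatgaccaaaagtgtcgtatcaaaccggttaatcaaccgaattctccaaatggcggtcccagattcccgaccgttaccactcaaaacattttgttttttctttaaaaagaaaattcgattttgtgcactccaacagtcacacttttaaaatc
Neither stretch holds a match to any of the 4 motifs, so all letters are in lower case. The match of GS2 to the second motif lies 15 bases after the start, outside the printed stretch.

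The 8 leaf photosynthesis markers went the same way as GS2 and GLU1 relative to WT, though 4 of them did not pass the test. RBCS1A changed least, by -0.08 on the log2 scale with an interval from -0.32 to 0.16. All 8 had negative fold changes relative to WT, 4 of them DEGs (RCA, GLDP1, CA1 and SBPASE, of which CA1 was not called in 35S:KLU2 alone) beside 8.18% of all genes lower, with a median of -0.34 on the log2 scale. Their summed FPKM ranged from 59729 to 66587 in 35S:KLU plants, against 70084 to 84906 in klu and 70185 to 75555 in WT. RCA, the activase of Rubisco, fell by 0.57, and GLDP1, a subunit of the glycine decarboxylase that releases photorespiratory ammonium, fell by 0.45 (adjusted p = 0.00198 and 0.00258). Relative to klu all 8 markers also had negative fold changes, 6 of them DEGs, beside 10.7% of all genes lower. Their median there was -0.32, and RCA, GLDP1 and SBPASE were called in each line alone. The part of this shift of markers in the lower GS2 and GLU1 was not tested.

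**Figure D3:**
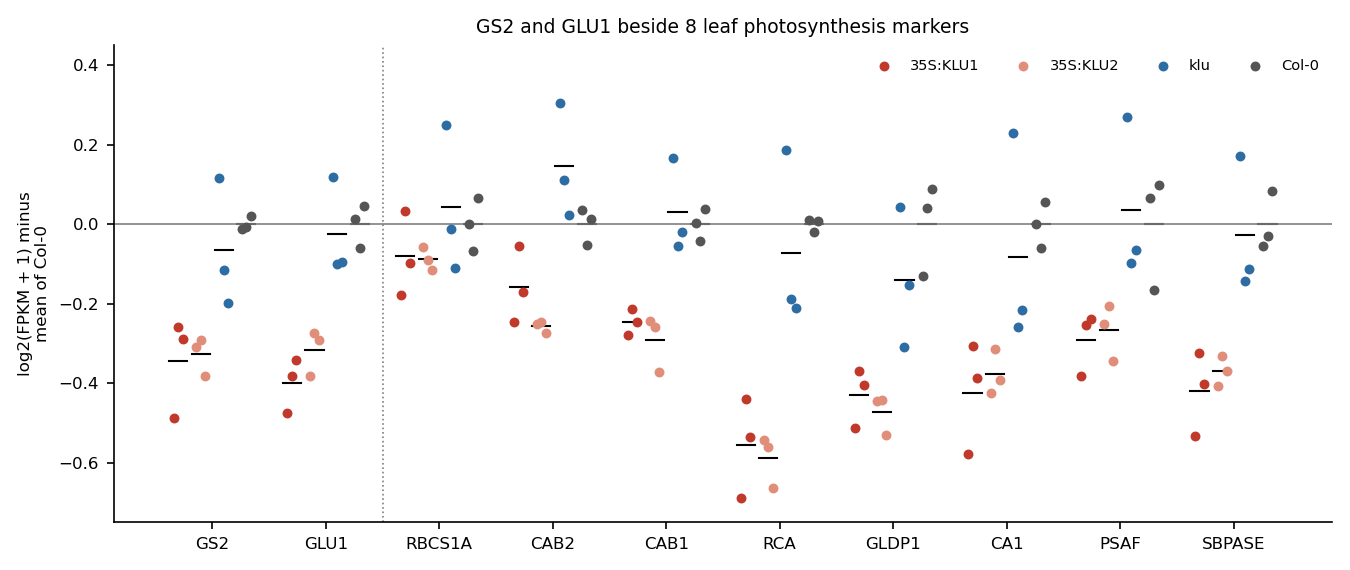
Difference of log2(FPKM + 1) from the Col-0 mean for GS2, GLU1 and 8 leaf photosynthesis markers, with points for single plants and bars for genotype means. All 8 markers have negative fold changes in 35S:KLU, as GS2 (-0.34) and GLU1 (-0.36) do, and klu replicate 1, the leftmost klu point, is highest in most of them.

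Of the other isoforms of both enzymes, 1 was called. Among the cytosolic glutamine synthetases, GLN1;1 (AT5G37600, 329.4 ± 37.1 FPKM in 35S:KLU plants and 315.9 ± 44.1 FPKM in WT), GLN1;2 (AT1G66200, 159.6 ± 5.31 and 165.8 ± 2.02 FPKM) and GLN1;3 (AT3G17820, 53.4 ± 2.96 and 58.9 ± 6.31 FPKM) did not pass the test. GLN1;4 (AT5G16570), known for its rise in ageing leaves, had 2.74, 3.24 and 3.42 FPKM in the 35S:KLU1 plants and 4.18, 3.50 and 3.28 FPKM in the 35S:KLU2 plants, against 8.05, 9.62 and 10.5 FPKM in WT. Its log2 fold change of -1.24 (SE 0.101, adjusted p = 4.76e-05) was larger than that of any member in this comparison, although it supplied little of the glutamine synthetase transcript. GLN1;5 (AT1G48470) was under the filter. GS2 made up 55.9% ± 2.51 of the summed glutamine synthetases in 35S:KLU plants, 62.8% ± 5.80 in klu and 61.4% ± 1.97 in WT.

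GLU1 likewise made up 64.2% ± 1.84 of the summed glutamate synthases in 35S:KLU plants, 71.9% ± 2.81 in klu and 71.5% ± 1.05 in WT. The other ferredoxin-dependent copy, GLU2 (AT2G41220), was at 20.3 ± 1.07 FPKM in 35S:KLU plants and 18.3 ± 1.47 FPKM in WT. GLT1 (AT5G53460), the form that uses NADH, was at 80.5 ± 5.96 FPKM in 35S:KLU plants and 73.8 ± 4.36 FPKM in WT. Neither passed the test.

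No nitrate or nitrite reductase passed the test against WT. NIA2, the major nitrate reductase of Arabidopsis leaves, had 136.5, 158.5 and 132.8 FPKM in the 35S:KLU1 plants and 136.9, 118.6 and 145.9 FPKM in the 35S:KLU2 plants, against 125.5, 135.6 and 127.7 FPKM in WT. Its log2 fold change was 0.09 with a 95% interval from -0.09 to 0.26 (adjusted p = 0.481). For NIA1, the minor form, the ranges were 17.4 to 23.7 FPKM in 35S:KLU plants and 21.2 to 26.0 FPKM in WT, with an interval from -0.48 to 0.20. NIR1 had 96.6, 105.1 and 102.1 FPKM in the 35S:KLU1 plants and 104.7, 113.6 and 107.7 FPKM in the 35S:KLU2 plants, against 136.0, 106.6 and 124.0 FPKM in WT. The 35S:KLU plants thus sat at the low end of WT, and the log2 fold change of -0.21 had an interval from -0.44 to 0.02 (adjusted p = 0.182). The intervals of NIA1 and NIR1 include changes as large as those of GS2 and GLU1.

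Nor were ASN1, GDH1 and GDH2 called against WT. ASN1, the dark-inducible asparagine synthetase, varied most among plants, with 17.3, 11.7 and 14.9 FPKM in the 35S:KLU1 plants and 13.2, 28.2 and 18.2 FPKM in the 35S:KLU2 plants, against 12.3, 16.1 and 15.6 FPKM in WT. 35S:KLU2 replicate 2 was well above the others, and the interval of the log2 fold change ran from -0.42 to 0.77. GDH1 had the narrowest interval for a member that was not called, from -0.09 to 0.20, with means of 60.7 ± 4.48 FPKM in 35S:KLU plants and 58.2 ± 0.713 FPKM in WT. GDH2 was at 49.3 ± 4.25 FPKM in 35S:KLU plants and 48.4 ± 5.02 FPKM in WT, with an interval from -0.24 to 0.30.

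**Figure D4:**
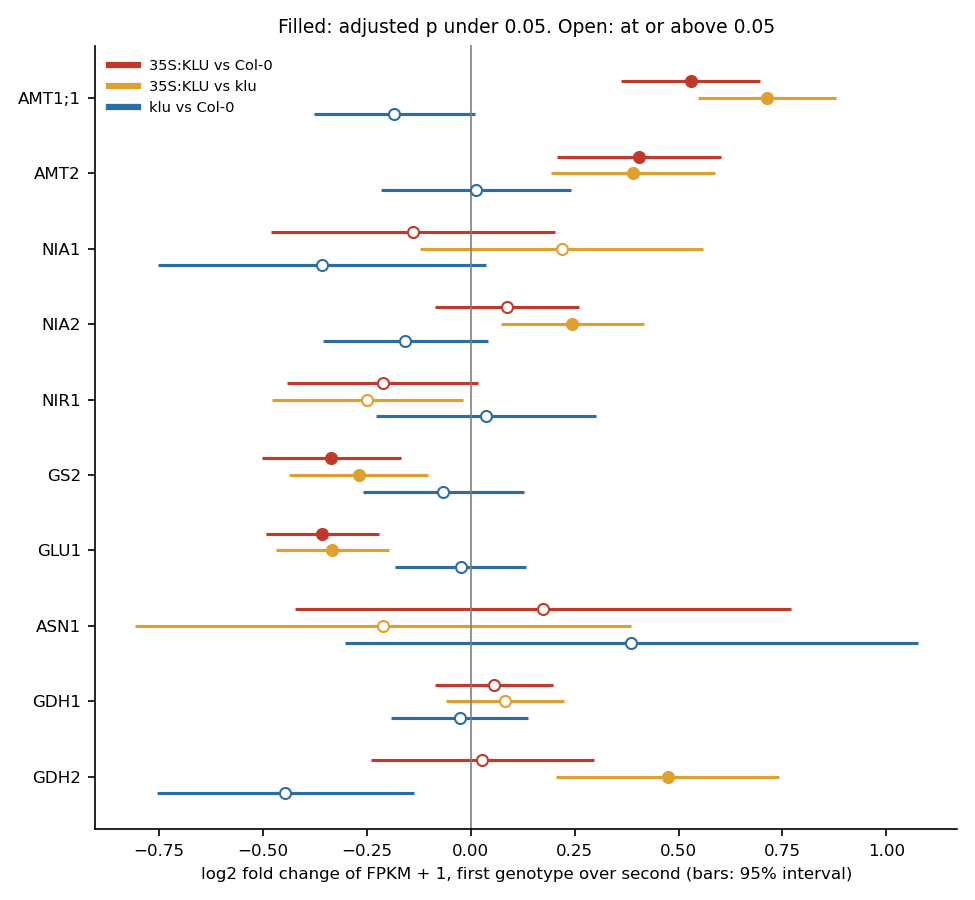
Log2 fold change of FPKM + 1 with its 95% interval for the 10 members in 3 comparisons, each the first genotype over the second. Filled points have an adjusted p under 0.05, which 4 members reach for 35S:KLU against Col-0, 6 for 35S:KLU against klu and 0 for klu against Col-0.

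Relative to klu, 6 of 10 members were DEGs in the mean of both lines, against 26.6% of all tested genes. In this comparison 4 members rose (15.9% of all genes were higher) and 2 fell (10.7% were lower). The comparison shares its 35S:KLU libraries with that against WT, so both are linked. AMT1;1 was at 78.7, 78.3 and 88.2 FPKM in klu, which put its log2 fold change at 0.71 (SE 0.0766, adjusted p = 9.85e-05). AMT2 was at 22.7, 24.9 and 26.8 FPKM in klu, and its change was 0.39 (SE 0.0906, adjusted p = 0.00801). All 6 35S:KLU plants again exceeded the highest klu plant for both genes.

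GLU1 had 251.5, 216.0 and 216.7 FPKM in klu, and GS2 had 945.7, 804.9 and 759.8 FPKM. Both were highest in klu replicate 1, the library that stood apart and in which the photosynthesis markers added up to 84906 FPKM. The log2 fold changes of 35S:KLU over klu were -0.33 for GLU1 (SE 0.0628, adjusted p = 0.00256) and -0.27 for GS2 (SE 0.0768, adjusted p = 0.0222). Without klu replicate 1 the change of GS2 was -0.18 and no longer passed (adjusted p = 0.0696), whereas the call of GLU1 held without any single library.

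GDH2 differed between 35S:KLU and klu plants. Its FPKM were 54.3, 46.6 and 44.7 in 35S:KLU1 and 48.0, 47.2 and 54.9 in 35S:KLU2, against 27.2, 37.8 and 42.1 in klu. The highest klu plant was below every 35S:KLU plant, and klu replicate 1 was lowest. The difference was 0.47 on the log2 scale (SE 0.123, adjusted p = 0.0143), and 0.30 without klu replicate 1 (adjusted p = 0.0472). GDH1, its close relative, had a change of 0.08 with an interval from -0.06 to 0.22. GDH2 made up 44.1% ± 1.22 of the summed glutamate dehydrogenases in 35S:KLU plants, 37.2% ± 4.10 in klu and 44.6% ± 2.97 in WT. The log2 ratio of GDH2 to GDH1 was 0.39 higher in 35S:KLU than in klu plants, and the 2-sided exact permutation test gave p = 0.0238, the smallest that 6 against 3 plants allow. It was 1 of 9 such exact permutation tests of 3 gene pairs (NIA1 to NIA2, GDH2 to GDH1 and ASN1 to ASN2), and after adjustment over them it did not pass (adjusted p = 0.214).

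NIA2, which was not called against WT, rose relative to klu by 0.24 on the log2 scale (SE 0.0792, adjusted p = 0.0387), with 138.2 ± 13.3 FPKM in 35S:KLU plants and 116.2 ± 7.85 FPKM in klu. Here the groups overlapped, since 35S:KLU2 replicate 2 was at 118.6 FPKM and klu replicate 1 at 123.2 FPKM. The call ended in 12 of 22 alternative settings, with adjusted p of 0.17 and 0.195 under 2 other scalings, and 0.0506 to 0.133 without Col-0 replicate 3, klu replicate 2 or 3, 35S:KLU1 replicate 1 or 2, or 35S:KLU2 replicate 1 or 3. NIA1 in klu ranged widely, at 12.5, 24.5 and 18.2 FPKM, and its change of 0.22 did not pass the test (adjusted p = 0.338), although it did without klu replicate 2 (0.44, adjusted p = 0.0366). NIR1 was at 151.3, 124.0 and 103.4 FPKM in klu, and its change of -0.25 had an adjusted p of 0.104, or -0.38 and 0.0131 without klu replicate 3. ASN1 was at 13.2, 15.8 and 34.2 FPKM in klu, a spread wider than that of the 35S:KLU plants, and its interval ran from -0.81 to 0.38. Without klu replicate 3 its change was 0.18.

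By line, 18.7% of all genes were called for 35S:KLU1 and 22.1% for 35S:KLU2 relative to klu, and 14.7% in both in the same direction. Of the members, 6 were called for 35S:KLU1 and 4 for 35S:KLU2, and the 4 called in both were the ammonium transporters, GLU1 and GDH2. The groups did not overlap for 5 members, these 4 and GS2, against 24.3% of all tested genes.

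Few genes separated klu from WT. None of the 10 members was a DEG in limma, where 0.061% of all genes (12 of 19660) were called, and at an unadjusted p under 0.05 there was 1 member, GDH2, among 1182 genes. GDH2 was at 27.2, 37.8 and 42.1 FPKM in klu, against 43.2, 53.2 and 48.8 FPKM in WT, without overlap. Its log2 fold change of -0.45 had an interval from -0.76 to -0.14, and its adjusted p was 0.627. The lowest klu plant was replicate 1, the library that stood apart. Over 22 alternative settings the change ranged from -0.57 to -0.27 and was called in 0. NIA2 was the only other member whose groups did not overlap, at 107.7 to 123.2 FPKM in klu plants and 125.5 to 135.6 FPKM in WT plants (adjusted p = 0.9), and 8.12% of all tested genes showed no overlap. AMT1;1 was at 81.8 ± 5.60 FPKM in klu and 93.1 ± 8.88 FPKM in WT, a log2 fold change of -0.18 with an interval from -0.38 to 0.01. For GS2 the interval was -0.26 to 0.13. For GLU1 it was -0.18 to 0.13, which does not include a fall as large as the -0.36 of 35S:KLU plants.

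Between 35S:KLU2 and 35S:KLU1 none of the 10 members was called in limma, where 0.0102% of all genes (2 of 19660) were called, and at an unadjusted p under 0.05 there were 0 members among 1112 genes. The narrowest interval of a member was that of GLU1, from -0.07 to 0.24 around a log2 difference of 0.08. The widest was that of ASN1, from -0.32 to 1.05 around 0.36. The median log2 difference of all tested genes between the lines was 0.065, and -0.0025 when scaled by the median of ratios.

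Further genes of the pathway were counted from lists chosen with earlier results of these data known. Of 11 genes for the molybdenum cofactor, siroheme and electron supply of nitrate and nitrite reduction, 2 rose, 0 fell and 9 did not pass relative to WT, and 3, 0 and 8 relative to klu. The shares called were thus near those of all genes, 19.6% relative to WT and 26.6% relative to klu. In 35S:KLU1 alone 0 of 11 were called relative to WT and 1 relative to klu, beside 11.7% and 18.7% of all genes. In 35S:KLU2 alone 2 were called in each, beside 16% and 22.1% of all genes. The median log2 fold changes of this list were 0.13 and 0.14, against 0.03 and 0.04 for all tested genes. CNX1 (AT5G20990), which inserts molybdenum into the cofactor of nitrate reductase, was at 38.5 ± 2.12 FPKM in 35S:KLU plants, 32.6 ± 2.92 FPKM in klu and 31.4 ± 1.52 FPKM in WT (log2 fold change over WT 0.28, adjusted p = 0.0111, and 0.0668 for 35S:KLU1 alone). CNX5 (AT5G55130), which supplies sulfur for the same cofactor, rose by 0.29 relative to WT (adjusted p = 0.0439, and 0.182 for 35S:KLU1 alone). SIRB (AT1G50170), a ferrochelatase that makes the siroheme of nitrite reductase, rose by 0.22 relative to klu (adjusted p = 0.0325, and 0.118 for 35S:KLU2 alone).

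Of 9 aminotransferases that move nitrogen from glutamate to other acids or back, 2 rose and 1 fell relative to WT, and 3 rose and 0 fell relative to klu, beside 19.6% and 26.6% of all genes called. Both alanine aminotransferases rose, and both were called in each line alone relative to WT and to klu. AlaAT1 (AT1G17290) was at 187.0 ± 11.4 FPKM in 35S:KLU plants, 131.8 ± 8.35 FPKM in klu and 143.0 ± 9.07 FPKM in WT, and rose over WT by 0.38 on the log2 scale (SE 0.065, adjusted p = 0.00213). ALAAT2 (AT1G72330) was at 19.1 ± 1.63 FPKM in 35S:KLU plants, 10.2 ± 1.76 FPKM in klu and 12.2 ± 1.12 FPKM in WT, and rose by 0.61 (SE 0.0993, adjusted p = 0.00181). ASP4 (AT1G62800), an aspartate aminotransferase, fell by 0.63 relative to WT (adjusted p = 0.0154, and 0.0517 for 35S:KLU1 alone).

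None of the 5 asparagine synthetases and asparaginases passed the test in either 35S:KLU comparison. ASN2 (AT5G65010), the most abundant of them, was at 61.8 ± 3.60 FPKM in 35S:KLU plants, 67.0 ± 10.6 FPKM in klu and 67.1 ± 4.97 FPKM in WT. Nor did any of 3 genes for the supply of 2-oxoglutarate. GDH3 (AT3G03910), the least abundant glutamate dehydrogenase, was at 1.64 ± 0.545 FPKM in 35S:KLU plants, 2.28 ± 1.201 FPKM in klu and 1.75 ± 0.413 FPKM in WT, and did not pass the test. Its coding sequence is 86% identical to that of GDH1, with a longest identical run of 59 bases.

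Among 17 tested regulators of the nitrate response, 2 rose and 1 fell relative to WT, and 3 rose and 1 fell relative to klu, shares no higher than the 19.6% and 26.6% of all genes. In 35S:KLU1 alone 0 of 17 were called relative to WT and 1 relative to klu, beside 11.7% and 18.7% of all genes. In 35S:KLU2 alone 2 and 4 were called, beside 16% and 22.1% of all genes. CIPK23 (AT1G30270), a kinase that phosphorylates AMT1 transporters and a nitrate transporter, rose by 0.50 relative to WT (adjusted p = 0.0205) and by 0.53 relative to klu (adjusted p = 0.0115), and for 35S:KLU1 alone it did not pass (adjusted p = 0.104 and 0.0631). TGA1 (AT5G65210), a bZIP factor of the nitrate response in roots, rose by 0.30 in each comparison (adjusted p = 0.00979 and 0.00724), and for 35S:KLU1 alone it did not pass (adjusted p = 0.0907 and 0.0719). LBD38 (AT3G49940), a repressor of nitrate-responsive genes, fell by 0.27 relative to WT and by 0.34 relative to klu (adjusted p = 0.0319 and 0.00749). In neither line alone was it called relative to WT (adjusted p = 0.0754 for 35S:KLU1 and 0.0644 for 35S:KLU2).

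The genes whose pattern over the 12 libraries was most like that of a member were named for the 3 members with the widest range of genotype means, as a description. For AMT1;1 they were DREB2C (AT2G40340, Pearson r = 0.976), AT4G21903, AT4G21970, AT1G33030 and FLOT1 (AT5G25250, r = 0.972). For AMT2 they were TCH3 (AT2G41100, r = 0.973), SGT1A (AT4G23570, r = 0.968), RKD5 (AT4G35590), AT1G08050 and FLOT1 (r = 0.959). For GDH2 they were MUB4 (AT3G26980, r = 0.963), AT4G29440, AT5G54855, AT1G28400 and HCHIB (AT3G12500, r = 0.943). The 12 points share their genotypes, so that any gene that follows the genotypes scores high.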

How the data were processed

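Per the labels and the methods of the study, poly(A) RNA was made into libraries with a directional kit. The submitters' processing notes name STAR, RSEM 1.2.22 and TAIR10. The authors deposited FPKM per gene, which scales for length and depth, so counts and exact depth are unknown here. Their log2 fold changes and p-values in the same table were not used, and 0 columns of per-sample values were left over.

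Log2(FPKM + 1) was fitted with limma 3.58.1 in R 4.3.3 as 4 genotype means over 12 libraries, with a variance trend, for genes at 0.5 FPKM or more in at least 3 libraries. Of 24434 genes above 0, 19660 passed. P-values were adjusted over them by Benjamini-Hochberg at 0.05. Ratios of gene pairs were compared with exact permutation tests (scipy 1.17.1). Alternatives changed the pseudocount, filter, scaling, variance model, weights and samples, left out each library in turn, and added a replicate block. Same-numbered plants were checked for shared deviations, which gave correlations from -0.16 to 0.13, and the main fit took the numbers as names of plants only.

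The members and lists were chosen with earlier results of these data known. All 10 members are named, every gene of lists of up to 6 genes may be, and up to 4 called genes of longer lists with the largest change. The photosynthesis and clock genes given singly lie outside this rule and were chosen after their values were seen. RefSeq TAIR10.1, which shares identifiers with TAIR10, holds 32835 of the genes and supplied names, coordinates and sequences.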

Additional observations from a re-analysis of the deposited data

How the results depend on the processing

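Of 22 alternative settings, none ended or turned the calls of AMT1;1, AMT2, GLU1 and GS2 relative to WT or those of AMT1;1, AMT2, GLU1 and GDH2 relative to klu. The count of called members stayed at 4 relative to WT and was 5 to 6 relative to klu when single libraries were left out. It was 0 in each such fit for klu against WT and between the lines. The call of GS2 relative to klu also ended with library weights (-0.20, adjusted p = 0.0534), and NIR1 passed relative to WT when only the compared groups were fitted (adjusted p = 0.0475). The cause was not tested.

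Values that turned were all of members that were not called. Relative to WT, GDH2 was at -0.00596 when scaled by the median of ratios, -0.0331 by the upper quartile and -0.0268 with library weights, and ranged from -0.0502 to 0.0972 without single libraries, and GDH1 was at -0.00535 by the upper quartile. Relative to klu, NIA1 was at -0.00528 with library weights and ranged from -0.0173 to 0.44 without single libraries, and ASN1 from -0.47 to 0.18. For klu against WT the ranges were -0.16 to 0.00067 for GS2 and -0.0963 to 0.0131 for GLU1.

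Without single libraries, the log2 ratio of NIA1 to NIA2 differed by -0.29 to -0.12 for 35S:KLU against WT, -0.30 to 0.18 against klu and -0.41 to 0.0774 for klu against WT. The ranges for GDH2 to GDH1 were -0.11 to 0.0513, 0.25 to 0.51 and -0.54 to -0.28, and those for ASN1 to ASN2 were 0.12 to 0.40, -0.43 to 0.42 and -0.13 to 0.72.

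The count of all genes called relative to WT was 6141 with library weights and 2198 to 5612 without single libraries, and relative to klu 4269 to 5337. For klu against WT it was 4 with the stricter filter (1 FPKM in every library), 6 with only those groups fitted and 6 to 27 without single libraries. Between the lines it was 4 with a pseudocount of 0.1 FPKM, without a filter or with library weights, 1 with the stricter filter, 7 with only those groups fitted and 1 to 4 without single libraries.

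With the replicate number as a block, 4 members were called relative to WT and 5 relative to klu, where NIA2 was lost (adjusted p = 0.0632), and all genes called numbered 3518 and 4854. Whether plants with the same number shared any handling is not given in the sources used here, and the cause of the lost call was not tested.

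With 3 plants per genotype, FPKM without counts and whole rosettes, the precision is that of the spread between plants. The shared libraries link the comparisons, and klu replicate 1 weighs on each klu value.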

Other observations

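Genes known to rise in darkness or sugar starvation, a list that also holds ASN1, fell in part in the 35S:KLU plants. Of 8 such genes, 0 rose, 4 fell and 4 did not pass in limma relative to WT, and relative to klu the counts were equal, with DYL1 in place of DIN2, beside 8.18% and 10.7% of all genes lower. In 35S:KLU1 alone 4 fell in each comparison, beside 1194 of all 19660 genes lower relative to WT and 1809 relative to klu. In 35S:KLU2 alone 2 fell relative to WT and 3 relative to klu, beside 1036 and 1398 of all genes lower. The list had medians of -0.32 and -0.23 on the log2 scale against 0.03 and 0.04 for all tested genes. SEN1 (AT4G35770), a gene of senescing leaves, was at 5.05 ± 0.494 FPKM in 35S:KLU plants (SD, n = 6), against 16.6 ± 4.86 FPKM in klu and 10.3 ± 3.34 FPKM in WT (SD, n = 3 each). DIN10 (AT5G20250), a raffinose synthase relative, was at 2.55 ± 0.295 FPKM in 35S:KLU plants, 6.02 ± 2.57 FPKM in klu and 6.13 ± 0.881 FPKM in WT. DIN2 (AT3G60140), a beta-glucosidase, was listed at 0 in all klu plants and averaged 0.667 ± 1.21 FPKM in 35S:KLU plants and 3.12 ± 0.641 FPKM in WT. Single 35S:KLU plants ranged from 0 to 3.11 FPKM, and for 35S:KLU2 alone DIN2 was not called relative to WT. ASN1 itself did not pass in any comparison.

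Clock genes are given because the hour of harvest is unknown and nitrogen assimilation genes cycle over the day. Of 8 clock genes, 1 rose and 1 fell relative to WT, and 2 rose and 2 fell relative to klu, beside 19.6% and 26.6% of all genes called. By line, 3 of 8 were called in 35S:KLU2 relative to WT and 6 relative to klu, beside 16% and 22.1% of all genes. In 35S:KLU1 the count was 0 in each, beside 11.7% and 18.7% of all genes. At an unadjusted p under 0.05 in limma, 35S:KLU1 had 0 of 8 relative to WT and 4 relative to klu. All genes at that level numbered 5292 and 6348 of 19660. For 35S:KLU2 the clock gene counts were 4 and 6, among 6153 and 7039 genes. Between 35S:KLU2 and 35S:KLU1 none was called in limma, but 4 of 8 had an unadjusted p under 0.05, among 1112 of all 19660 genes. PRR9, a repressor of morning clock genes, was at 14.5, 12.7 and 15.3 FPKM in 35S:KLU2, against 21.0, 19.0 and 19.0 FPKM in 35S:KLU1, and WT plants lay at 18.8 to 22.1 FPKM (log2 difference between the lines -0.45, adjusted p = 0.467). ELF4, a part of the evening complex, was at 52.8, 63.0 and 54.1 FPKM in 35S:KLU2, against 40.7, 34.3 and 41.3 FPKM in 35S:KLU1, and WT plants lay at 34.2 to 44.8 FPKM (0.54, adjusted p = 0.608). The part of the hour of harvest in the members' differences was not tested in either line.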
